A study of Mus musculus with 17 samples.

Results

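Expression of 10 genes of triglyceride breakdown and lipid droplets was examined in the left ventricular apex 3 weeks after surgery, in 17 bulk RNA-sequencing libraries. The genes are Ces1d, Lpl, Pnpla2, Lipe, Mgll, Abhd5, G0s2, Plin2, Plin4 and Plin5, all 10 of which were among the 21798 gene symbols measured and among the 16218 that passed the filter on low values. Mice were male C57Bl6/J, 7 to 8 weeks old at surgery, with sham surgery or transverse aortic constriction (TAC), which narrows the aorta and loads the left ventricle with pressure. They received by gavage either vehicle (Veh, called saline in the labels) or 29P, an oral prodrug of an RGD mimetic directed at αvβ3 integrin, in 6 gavages of 50 μg/kg that began a week after surgery. Sham Veh had 5 libraries, TAC 29P 6, and Sham 29P and TAC Veh 3 each, and per the study a TAC Veh library that grouped with the Sham libraries, and others of low depth, had been removed before deposit. The labels name no allele or transgene and do not give littermates, cages or surgery days. Because nothing states more than that the libraries are separate animals of one group, p-values measure the spread between these libraries.

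The set was chosen by gene name and function with earlier results of the same libraries in view. The levels of Ces1d in the 4 groups were among those results, and the study also singled it out on these animals. Its values are therefore given as a description with no test. For the other 9 genes, p-values come from a limma model fitted to all 16218 genes, and they are not independent of the earlier look at the data.

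Triglyceride in a cell is stored in lipid droplets and is split one fatty acid at a time. In cardiac muscle, lipoprotein lipase (Lpl), which muscle cells make and which acts on the vessel wall, frees fatty acids from circulating lipoproteins. Inside the cell, adipose triglyceride lipase (Pnpla2) starts the breakdown of droplets, with its co-activator Abhd5 and its inhibitor G0s2, and hormone-sensitive lipase (Lipe) and monoglyceride lipase (Mgll) carry it on. The perilipins coat the droplet, and perilipin 5 (Plin5) is known for its high level in the heart and its place between droplets and mitochondria. Ces1d is a carboxylesterase of the endoplasmic reticulum that hydrolyses triglyceride.

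Values are CPM, reads scaled to the total of the library, as deposited. Depth, estimated from the step between low values, was 14.2 to 23.8 M reads (median 20.4 M), and mitochondrial genes took 23.6 to 40.0% of the reads. Library S14 (Sham 29P; S numbers are those of the labels) had both the fewest reads and the highest mitochondrial share. S18 (TAC 29P), S19 and S20 (both Sham Veh), which form 1 run of animal numbers, held atrial transcripts: Myl7 was 335, 895 and 723 CPM there and at most 1.0 CPM in the other 14 libraries. The defining markers of ventricular muscle were present in every library, with Myl2 at 4107 CPM or more. Values with and without these 4 libraries are given for some of the results that changed, not for all. In bulk tissue, fewer cells of a type and less RNA per cell cannot be told apart.

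The 250 bases before a RefSeq start of Plin5, Plin2 and Pnpla2 (GRCm38.p6) are shown. These genes were taken because Plin5 and Plin2 passed a test below, while Pnpla2 passed none. Pnpla2 is the lipase whose levels followed those of Plin5 most closely among the 10 genes. Capitals mark matches to the nuclear receptor half-site AGGTCA on either strand and to the E-box CACGTG. Each sequence is written 5′ to 3′ on the strand of its gene.
Plin5 (chr17:56117549-56117798, minus strand): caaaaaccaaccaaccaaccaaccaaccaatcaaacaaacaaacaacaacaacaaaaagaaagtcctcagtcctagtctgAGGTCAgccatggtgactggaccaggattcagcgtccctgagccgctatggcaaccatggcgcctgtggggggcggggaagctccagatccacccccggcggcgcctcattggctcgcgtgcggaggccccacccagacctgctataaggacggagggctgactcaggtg
Plin2 (chr4:86670060-86670309, minus strand): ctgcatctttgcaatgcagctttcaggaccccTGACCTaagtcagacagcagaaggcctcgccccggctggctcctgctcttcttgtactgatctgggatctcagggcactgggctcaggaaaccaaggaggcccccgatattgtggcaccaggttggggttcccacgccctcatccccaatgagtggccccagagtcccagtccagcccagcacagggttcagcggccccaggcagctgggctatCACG
Pnpla2 (chr7:141454938-141455187, plus strand): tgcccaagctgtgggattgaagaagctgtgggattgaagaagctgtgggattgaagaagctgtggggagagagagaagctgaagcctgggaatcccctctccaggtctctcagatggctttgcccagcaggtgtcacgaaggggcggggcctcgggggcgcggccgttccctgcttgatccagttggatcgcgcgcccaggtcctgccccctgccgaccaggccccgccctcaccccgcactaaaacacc
The half-site of Plin5 begins 170 bases before the start shown, and that of Plin2, read as its reverse complement, 218 bases before its start. Plin5 has a further RefSeq start, and the 250 bases before it (chr17:56117299-56117548) held neither motif. A half-site begins 13 bases after that start, inside the window of 300 bases used for the shares below. The final 4 capitals of Plin2 open an E-box that runs across the start, and the Pnpla2 sequence held neither motif. Of the 8 genes with a RefSeq promoter here, Abhd5 also held a half-site, 69 bases before its start, and Lipe and Mgll each held an E-box, at 155 and 44 bases. A further RefSeq start of Lipe and of Mgll had no match in its window. Over all 32851 mouse promoters of 300 bases (250 before and 50 after the start), 16.3% held the half-site and 7.15% the E-box. These matches describe the letters of the window and are not evidence of binding.

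In GENCODE vM21 on mm10, Ces1d lies on chromosome 8 from 93166068 to 93197838 and Lpl on the same chromosome from 68880491 to 68907448. Plin4 (chromosome 17, 56100591 to 56109803) and Plin5 (56111601 to 56117596) are neighbours on the minus strand, 1797 bases apart. Of the transcript windows of 50 bases, 1.08% for Ces1d also occur in Ces1b, Ces1g or Ces1f, and 2.57% for Plin2 occur in Gm12551. For Lpl 1.14% occur in other genes, Oscp1 and Maip1 among them, and for Abhd5 0.295%. Reads of those stretches could have been split. The annotation places a gene on the opposite strand over Lipe, Mgll, Abhd5, G0s2 and Plin4. The strand setting of the counting was not given in the sources used here, so reads of such partners cannot be told apart from theirs. The partner of Abhd5 was not among the gene symbols measured. On the same strand, Gm45909 overlaps Ces1d, and Gm44005, Gm43999 and Gm44001 overlap Mgll. How reads of these overlaps were assigned was not given either.

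Per kb of exon, Lpl stood far above the other genes in Sham Veh ventricles, at 413 ± 39.6 CPM per kb (SD, n = 5). Pnpla2 followed at 52.3 ± 11.5 CPM per kb. Mgll (31.97 ± 5.78), Ces1d (31.8 ± 4.88), G0s2 (31.7 ± 13.1), Plin5 (24.99 ± 5.34) and Plin4 (22.0 ± 8.91) came next, and within these 5 each range over libraries overlapped that of its neighbours in the order. Plin2, the perilipin found in most tissues, was at 14.02 ± 2.81, Abhd5 at 7.34 ± 0.596 and Lipe at 4.17 ± 1.03 CPM per kb. The ranges of these last 3 did not overlap one another. In TAC Veh ventricles Ces1d stood at 8.02 ± 2.05 CPM per kb (SD, n = 3), below the lowest Plin2 value of that group, 12.3 CPM per kb.

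**Figure D1:**
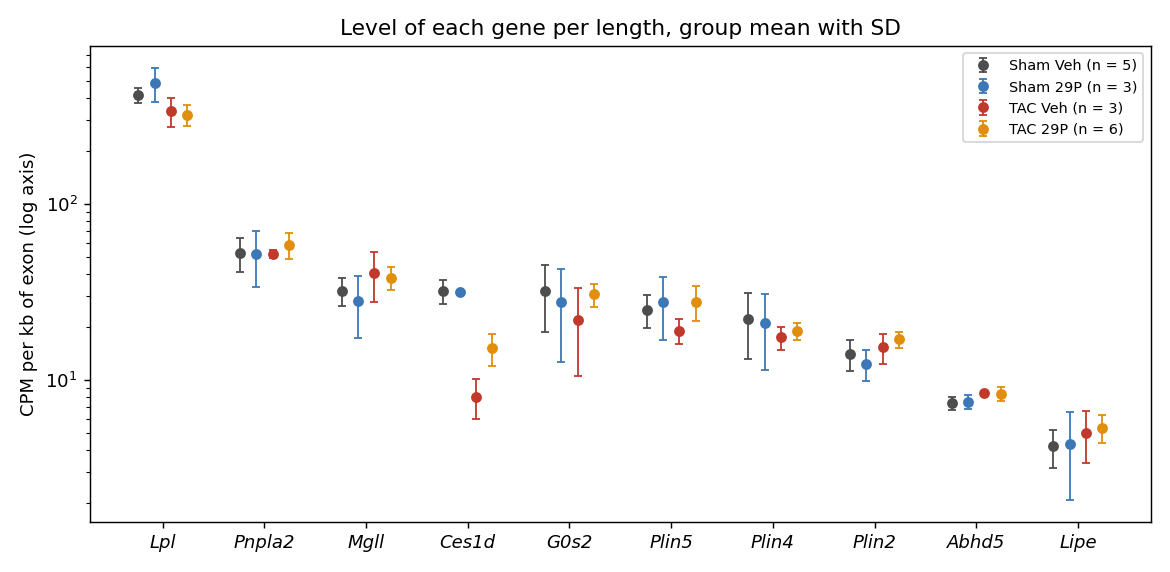
Level of each gene in CPM per kb of exon (log axis) as group means with SD, with 5, 3, 3 and 6 libraries in the order of the legend. Lpl is the highest in every group and Lipe the lowest, and Ces1d is the gene whose place in the order differs most between Sham and TAC.

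Ces1d had the lowest values after TAC and intermediate values with 29P. Its CPM was 64.0, 61.3, 83.0, 84.5 and 83.4 in the Sham Veh libraries and 74.0, 73.9 and 75.8 in the Sham 29P libraries. In TAC Veh it was 14.02, 23.7 and 19.2, and in TAC 29P it ran from 27.3 over a median of 35.5 to 45.8. Every TAC Veh value lay below every Sham value, and all 6 TAC 29P values lay between the TAC Veh and the Sham 29P values. The fitted log2 fold change was −2.01 (standard error, SE, 0.19) for TAC Veh against Sham Veh, a fold of 0.249. It was −1.08 (SE 0.18) for TAC 29P against Sham 29P, 0.93 (SE 0.18, 1.90-fold) for 29P within TAC, and 0.001 (SE 0.19) for 29P within Sham. These values chose the gene and are not tested. The TAC Veh libraries serve in both contrasts that involve them, so a low level there enters each one.

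**Figure D2:**
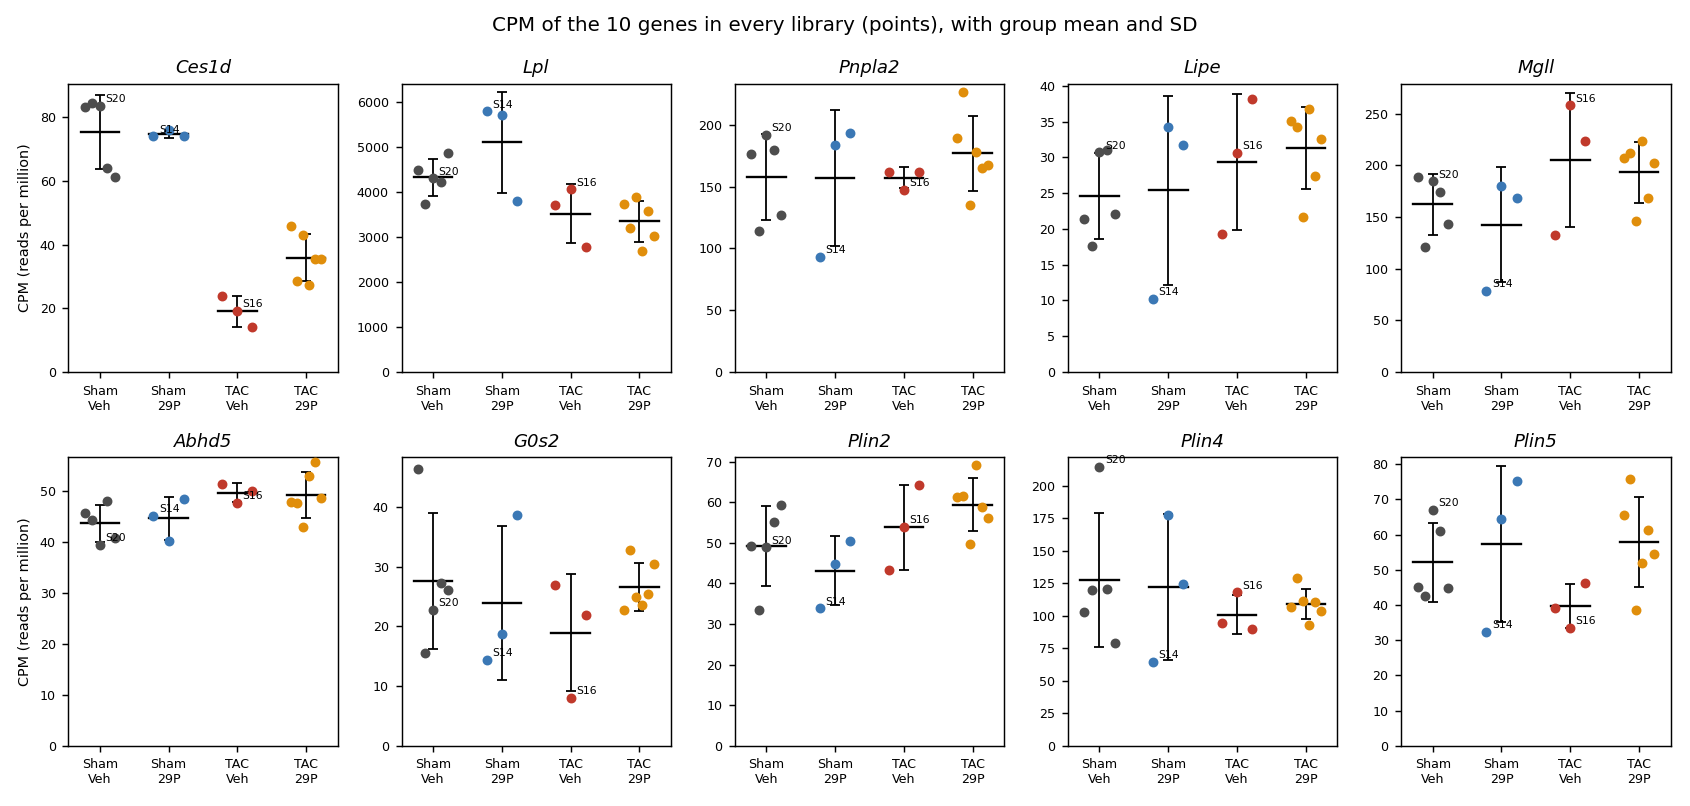
CPM of each gene in every library (points) with the group mean (line) and SD (bars), on axes from 0; S14, S16 and S20 are marked. Ces1d separates TAC from Sham libraries, and the TAC Veh points of Ces1d lie below all others, while the remaining genes overlap between TAC Veh and Sham Veh.

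The first question was which of the genes differed after TAC in vehicle-treated mice, at an adjusted p of 0.05 or less. Leaving aside Ces1d, of the other 9 genes 0 were called higher and 0 lower, where 22.5% of all genes tested were called higher and 1.91% lower. All 10 genes, Ces1d included, lay below the median of all genes, which was itself shifted to a log2 fold change of 0.35. The median of the 10 was −0.12. With TMM factors, which rescale the libraries to a common middle, the median of all genes became 0.02 and that of the 10 genes −0.45, and all 10 values were negative. The sign of the genes close to 0 thus depends on the scaling. So does the background: with TMM factors 681 of all 16218 genes were called higher and 866 lower.

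Lpl, the most abundant of the 10, had CPM values of 4220.1, 4870.4, 4502, 3736 and 4305 in Sham Veh and of 2785, 3704 and 4063 in TAC Veh. The lowest library was a TAC Veh library, S2, and 2 of the 3 TAC Veh values lay below all Sham Veh values. The log2 fold change of −0.31 (SE 0.16, limma adjusted p = 0.156, exact two-sided permutation p = 0.0536) did not pass. It was −0.15 without S2, and −0.63 with TMM factors (limma adjusted p = 0.069).

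Plin5 was 61.1, 44.8, 45.2, 42.6 and 67.1 CPM in Sham Veh and 46.2, 39.3 and 33.6 CPM in TAC Veh. The groups overlapped through S2, the highest TAC Veh library. Its change of −0.38 (SE 0.25, limma adjusted p = 0.252) did not pass, but with TMM factors it was −0.70 (SE 0.22, limma adjusted p = 0.0478) and did. The call therefore depends on the scaling of the libraries.

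Of the genes around adipose triglyceride lipase, G0s2 varied most between animals of 1 group. Its CPM was 27.3, 26.1, 46.4, 15.6 and 22.8 in Sham Veh and 21.9, 27.0 and 7.997 in TAC Veh, so that S16 alone was below the Sham Veh range. The log2 fold change was −0.63 (SE 0.37, limma adjusted p = 0.208), and it was −0.09 without S16 and −0.95 with TMM factors. Without S18, S19 and S20 it was −0.94. Pnpla2 itself ran from 114 to 192 CPM in Sham Veh and from 147 to 162 CPM in TAC Veh. Its difference was 0.02 (SE 0.22, 95% interval −0.44 to 0.48, limma adjusted p = 0.95), and −0.30 with TMM factors. Abhd5 was 39.5 to 48.1 CPM in Sham Veh and 47.8 to 51.4 CPM in TAC Veh, a difference of 0.19 (SE 0.10, limma adjusted p = 0.169) that became −0.13 with TMM factors.

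The downstream lipases and the perilipins Plin2 and Plin4 did not pass either. Lipe, at 17.6 to 31.1 CPM in Sham Veh and 19.3 to 38.2 CPM in TAC Veh, differed by 0.24 (95% interval −0.45 to 0.93), and Mgll, at 121 to 189 and 133 to 258 CPM, by 0.30 (95% interval −0.23 to 0.83). Plin2 was 33.4 to 59.4 CPM in Sham Veh and 43.2 to 64.2 CPM in TAC Veh, a difference of 0.14 (95% interval −0.24 to 0.51). With TMM factors Lipe, Mgll and Plin2 turned to −0.08, −0.02 and −0.19. Plin2 was also at −0.04 without S18, S19 and S20.

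Plin4, a perilipin abundant in adipocytes and muscle, was 121, 79.3, 103, 119.7 and 214 CPM in Sham Veh and 89.7, 94.5 and 118 CPM in TAC Veh. The value of 214 CPM belongs to S20. The log2 fold change was −0.27 (SE 0.28, limma adjusted p = 0.48). It was 0.01 without S18, S19 and S20 and −0.59 with TMM factors. S20 also had the highest level of adipocyte markers. Of 7 adipocyte markers 6 were listed, leptin (Lep) not among them. The summed CPM of Adipoq, Cfd, Retn, Cidec and Plin1 was 17.7 in S20, 11.3 in S18, 3.40 in S15, 2.86 in S19 and at most 0.916 in the other 13 libraries, and Adipoq was at 0 in 4 libraries. Thrsp, the sixth, was at 11.4 to 26.4 CPM throughout. S15, with 177 CPM, had the second highest Plin4 value, whereas S18 was at 111 CPM. Of the brown adipocyte markers Ucp1 was not listed and Cidea, also expressed in these hearts generally, ran from 13.4 to 24.2 CPM. The part of adipocyte RNA in the Plin4 values was not tested.

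**Figure D3:**
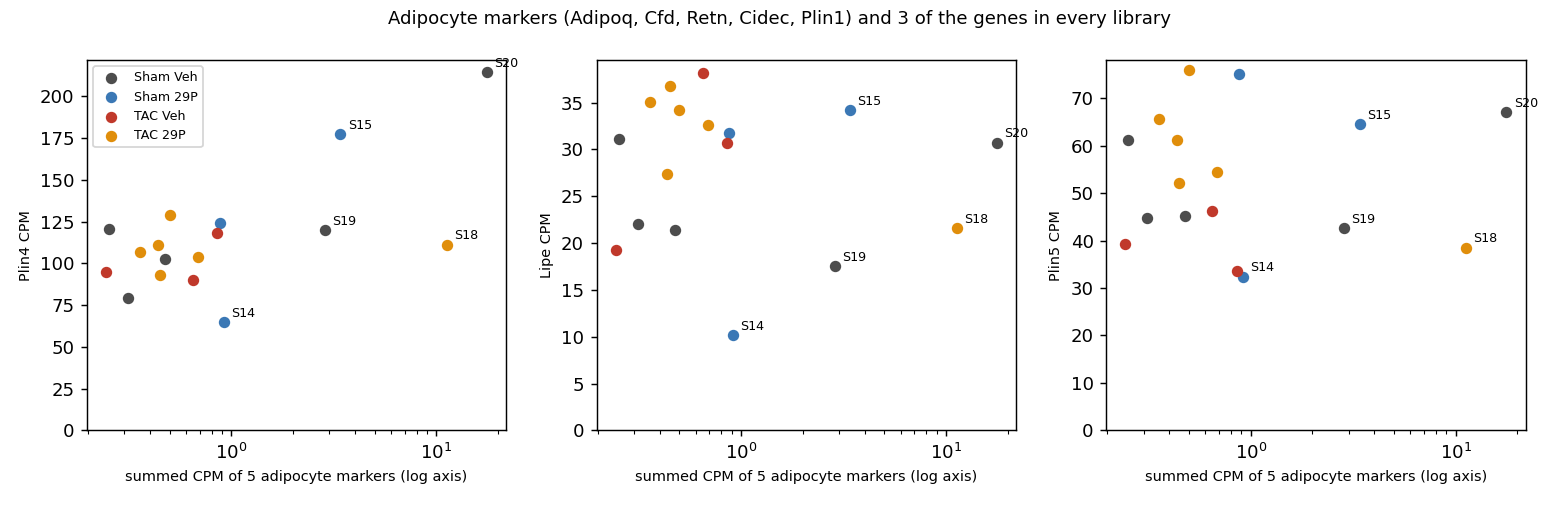
Plin4, Lipe and Plin5 CPM in each of the 17 libraries against the summed CPM of 5 adipocyte markers (log axis), coloured by group. S20, with the highest marker sum of 17.7 CPM, has the highest Plin4 value of 214 CPM, while S18, with a sum of 11.3 CPM, lies among the other libraries for all 3 genes.

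The same comparison in treated mice, TAC 29P against Sham 29P, gave, of the 9 genes other than Ces1d, 1 called lower, Lpl, and 1 called higher, Plin2. Of all genes tested 31.4% were called higher and 1.12% lower, and the median log2 fold change was 0.37 (0.02 with TMM factors). With TMM factors 929 of all 16218 genes were called higher and 792 lower. Lpl was 3809.9, 5797 and 5722 CPM in Sham 29P, and in TAC 29P it ran from 2697 over a median of 3386.5 to 3895. Of the 6 TAC 29P values 5 lay below all Sham 29P values, and the groups overlapped through S4 and S18. On the log2 scale Lpl changed by −0.59 (SE 0.16, limma adjusted p = 0.0135, exact two-sided permutation p = 0.0238), and by −0.95 with TMM factors (limma adjusted p = 0.0106). The call was lost without S14 (−0.49), without S15 (−0.50) and with a covariate for the run of animal numbers (−0.34).

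Plin2, which rises in many cells when they store lipid, was 50.5, 33.8 and 44.9 CPM in Sham 29P and 49.7 to 69.2 CPM, with a median of 60.0, in TAC 29P. Of the 6 TAC 29P values 5 lay above all Sham 29P values, the exception being S18. The fitted difference was 0.48 (SE 0.17, limma adjusted p = 0.0434, exact two-sided permutation p = 0.0238). It was 0.12 with TMM factors (limma adjusted p = 0.631). The call was kept in 2 of the 9 fits with 1 library left out (without S4 and without S18). Over all 9 of these fits the difference was 0.31 to 0.60. The other 7 genes were not called: Lipe at 0.47, Mgll at 0.52, Pnpla2 at 0.23, Abhd5 at 0.14 and G0s2 at 0.27, Plin5 at 0.07 and Plin4 at −0.05. Of these 7, Lipe and Mgll kept a positive sign with TMM factors. Most of these values rested on S14: without it Lipe was at −0.10, Mgll at 0.13, Pnpla2 at −0.11, G0s2 at −0.03, Plin5 at −0.30 and Plin4 at −0.45, with Abhd5 at 0.15.

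Treatment was then compared within TAC. The call was an unadjusted p of 0.05 or less, the threshold of the study's own methods; 1.05% of all genes tested were called higher and 0.931% lower. In limma 0 genes of 16218 passed an adjusted p of 0.05 (170 were higher and 151 lower at an unadjusted p of 0.05, and the smallest adjusted p was 0.54). Of the 9 genes other than Ces1d, Plin5 was called higher and 0 lower.

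Plin5 was 46.2, 39.3 and 33.6 CPM in TAC Veh, and in TAC 29P it ran from 38.5 over a median of 57.9 to 75.9 CPM. Of the 6 TAC 29P libraries 5 lay above all 3 TAC Veh libraries, and the sixth, S18, lay below 2 of them. The mean was 57.9 ± 12.8 CPM (SD, n = 6) with 29P against 39.7 ± 6.34 CPM (SD, n = 3). In deposited CPM the Sham Veh mean was 52.1 ± 11.1 and the Sham 29P mean 57.3 ± 22.3. TAC 29P against Sham 29P was 0.07 as deposited, −0.28 with TMM factors and −0.30 without S14, so nearness to Sham depends on both. Within TAC the log2 fold change for 29P was 0.53 (SE 0.24, 1.44-fold, limma unadjusted p = 0.0425, adjusted p = 1). The exact two-sided permutation p was 0.0595, where 84 splits allow 0.0119 at the smallest. With TMM factors the difference within TAC was 0.55, so that contrast did not rest on the scaling.

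The unadjusted call of Plin5 was lost without any of S1, S8, S9, S11, S12 or S16, at 0.41 to 0.64 over all 9 fits that left a library out. It was 0.64 without S18, S19 and S20 and 0.30 (limma unadjusted p = 0.26) with a covariate for the run of animal numbers. The same contrast in Sham mice was 0.07 (SE 0.25), with Sham 29P values of 75.1, 32.4 and 64.5 CPM. The difference of the 29P effect between TAC and Sham, 0.45 (SE 0.35, limma adjusted p = 0.998), did not pass. Without S14 the Sham value was 0.44, and the difference between the effects was 0.16 without S14, S18, S19 and S20 and 0.19 with the covariate.

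**Figure D4:**
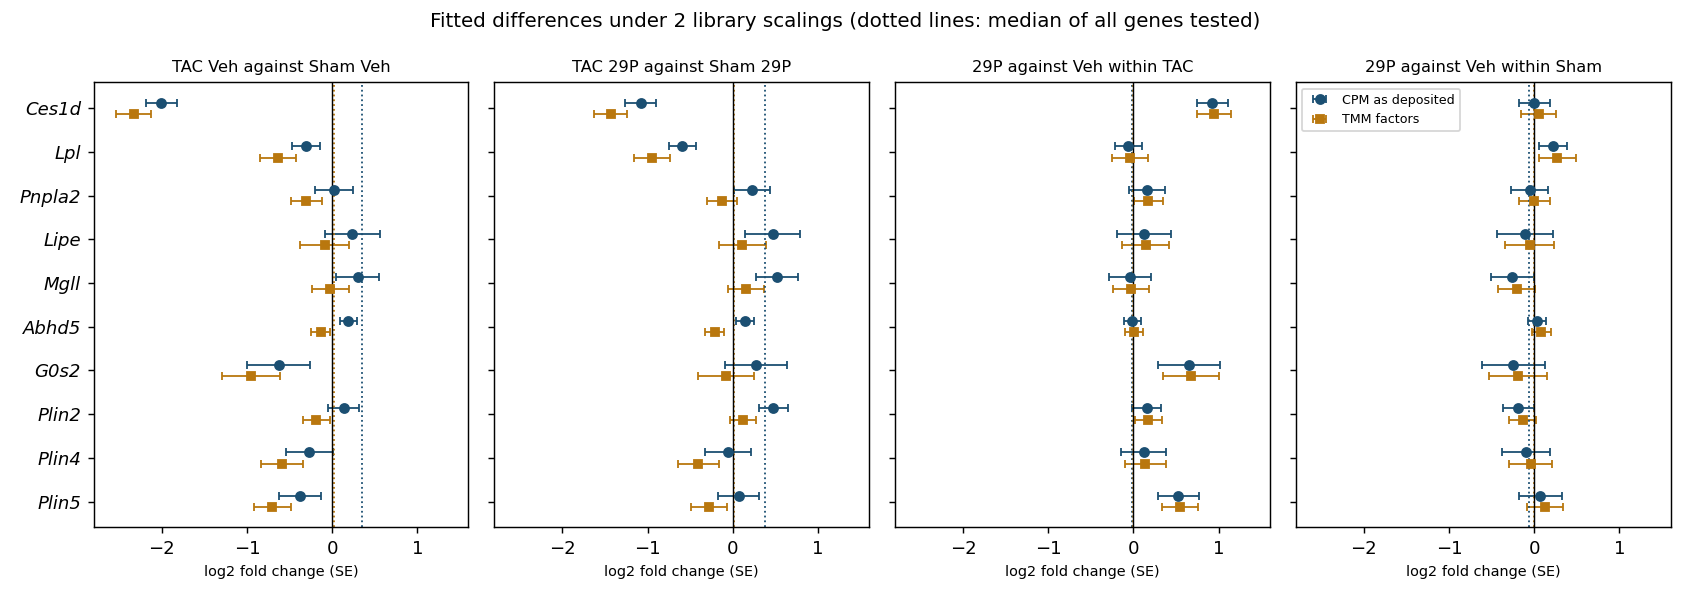
Log2 fold change with standard error of each gene in 4 comparisons, with CPM as deposited (circles) and with TMM factors (squares); dotted lines mark the median of all genes tested. In both comparisons of TAC with Sham the TMM values lie to the left of the deposited ones, whereas the 2 scalings nearly coincide for 29P against Veh.

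After Ces1d, G0s2 had the largest value of the 10 for 29P within TAC, with a wide spread. In TAC 29P it ran from 22.7 over a median of 25.1 to 32.7 CPM, against 21.9, 27.0 and 7.997 CPM in TAC Veh. This log2 fold change, 0.65 (SE 0.36, limma unadjusted p = 0.0871), was 0.12 without S16 and 0.996 (limma unadjusted p = 0.0221) without S12. The remaining 7 genes lay between −0.06 (Lpl) and 0.16 (Pnpla2 and Plin2), with unadjusted p of 0.38 or more. For Lpl the 95% interval was −0.39 to 0.27 and for Abhd5 −0.23 to 0.19.

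In Sham mice 29P gave 0 calls among the 10 genes in either direction, where 1.6% of all genes tested were called higher and 5.89% lower. The values ran from −0.26 (Mgll) to 0.22 (Lpl). S14 shaped this group on the deposited scale. There it held the lowest value of all 17 libraries for Pnpla2 (93.4 CPM), Lipe (10.2 CPM), Mgll (78.9 CPM), Plin4 (64.7 CPM) and Plin5 (32.4 CPM), and the highest for Lpl (5797 CPM). S14 also had the lowest TMM factor, 0.775, so its place among the libraries can differ after rescaling. Without it, Lipe moved from −0.10 to 0.46, Plin4 from −0.10 to 0.30 and Pnpla2 from −0.05 to 0.29, of which none passed an unadjusted p of 0.05. Without S4, Lpl was at 0.42 (limma unadjusted p = 0.021). Without S14, S18, S19 and S20, Plin4 at 0.58 (limma unadjusted p = 0.0102) and Plin5 at 0.48 (limma unadjusted p = 0.0215) did, and without S18, S19 and S20 Plin2 at −0.36 (limma unadjusted p = 0.0447) did. No member passed an adjusted test of the difference between the 29P effects in TAC and Sham. That difference was 0.90 for G0s2, 0.34 for Plin2 and 0.21 for Plin4. Without S18, S19 and S20 it was 1.22 (limma unadjusted p = 0.0418), 0.56 (limma unadjusted p = 0.021) and −0.07. Without S14 as well, the values were 0.92, 0.40 and −0.47.

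Differences between 2 genes of the same library do not depend on its total. Plin5 minus Pnpla2, on the log2 scale, was −2.04, −2.13 and −1.81 in TAC Veh, −1.96 to −1.42 in Sham Veh, −1.53 to −1.37 in Sham 29P and −1.81 to −1.43 in TAC 29P. The TAC Veh values were the lowest of the 4 groups on average, at −2.00 ± 0.17 (SD, n = 3) against −1.59 ± 0.21 in Sham Veh and −1.63 ± 0.14 in TAC 29P, although S13 of Sham Veh lay among them. Plin5 minus Plin2 was −0.43 ± 0.27 in TAC Veh, 0.08 ± 0.35 in Sham Veh and −0.06 ± 0.28 in TAC 29P, with overlapping ranges. Pnpla2 minus G0s2, the lipase against its inhibitor, was 3.23 ± 0.86 in TAC Veh and 2.73 ± 0.25 in TAC 29P, the TAC Veh mean being raised by S16 at 4.20. S14, although lowest for 5 genes in deposited CPM, was at −1.53 for Plin5 minus Pnpla2, close to the −1.51 and −1.37 of the other Sham 29P libraries. These differences were chosen with the values in view and carry no test.

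**Figure D5:**
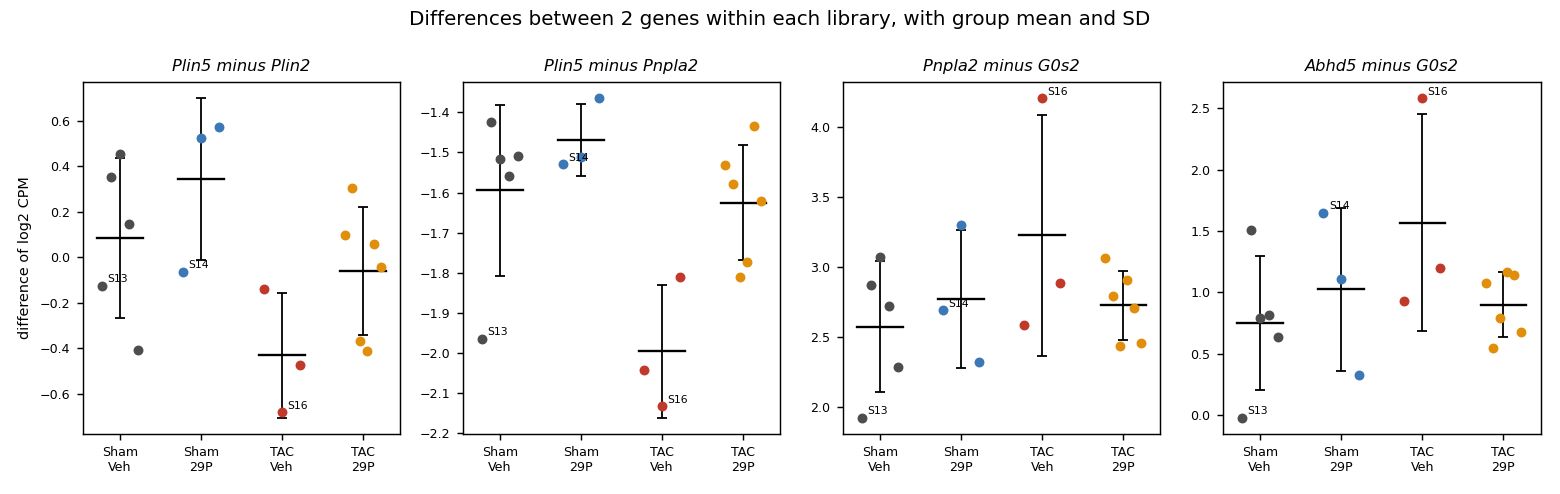
Difference of log2 CPM between 2 genes in each library (points) with group mean and SD, for 4 pairs; S13, S14 and S16 are marked. For Plin5 minus Pnpla2 the 3 TAC Veh libraries lie between −2.13 and −1.81, and S13 is the Sham Veh library that reaches them.

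Among the 10 genes, the pairs closest in pattern over the 17 libraries were Lipe and Mgll, with a root mean square difference of centred log2 CPM of 0.21, and Pnpla2 and Plin5, with 0.22. Ces1d was far from all, between 0.63 (Lpl) and 1.08 (Lipe). Of 14053 genes with a mean of at least 1 CPM, those closest to Ces1d were Hnmt (0.26), Acsm5 (0.35), Phkg1 (0.36), Pla2g5 (0.38) and Kcnv2 (0.38). Hnmt, which inactivates histamine, had mean log2 CPM of 3.35 in Sham Veh, 3.47 in Sham 29P, 1.86 in TAC Veh and 2.53 in TAC 29P. The closest to Plin5 were Agpat3 (0.19), Mlycd (0.20), Hhatl (0.20), Alkbh7 (0.21) and Kcnk3 (0.21). Agpat3, an acyltransferase of glycerolipid synthesis, had means of 6.69, 6.69, 6.44 and 6.83 in the same order of groups. The points share libraries and totals, so these are descriptions.

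Other genes of the pathway were taken from 4 lists. Of the triglyceride synthesis genes 13 of 15 were tested, and after TAC in vehicle-treated mice 3 were called higher and 0 lower, with a median of 0.25 against 0.35 for all genes, of which 22.5% were called higher. They were the phosphatidate phosphatases Lpin2 (0.61, limma adjusted p = 0.018) and Lpin3 (0.84, limma adjusted p = 0.03) and the acyltransferase Agpat4 (0.87, limma adjusted p = 0.0386). With TMM factors 0 were higher and 2 lower, Agpat3 at −0.57 and Lpin1 at −0.41, beside 681 higher and 866 lower of all 16218 genes. For 29P within TAC 0 of the 13 were called. With TMM factors 1 was higher, Agpat3 (0.41), and 1 lower, Lpin3 (−0.47), beside 235 higher and 160 lower of all 16218 genes.

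Among 12 tested lipid droplet proteins outside the 10 genes, 1 was called higher after TAC and 1 lower, where 1.91% of all genes were called lower, and the median was 0.22. Tmem159, a partner of seipin in droplet formation, was higher by 0.54 (limma adjusted p = 0.0083), which with TMM factors was 0.22 and not called. Fitm2, a membrane protein that promotes lipid storage in droplets, had 101 to 147.9 CPM in Sham Veh and 77.9 to 95.2 CPM in TAC Veh, without overlap, and fell by −0.50 (SE 0.16, limma adjusted p = 0.0316). In TAC 29P it was 100.3 to 130.4 CPM, above all TAC Veh libraries, a difference of 0.44 (SE 0.15, limma unadjusted p = 0.0104, adjusted p = 1). Fitm2 kept both calls with TMM factors, at −0.82 and 0.46. It was the only gene of the 4 lists called for 29P within TAC on the deposited scale, of 13, 12, 8 and 12 tested. At that threshold 1.05% of all genes were called higher and 0.931% lower, so 1 call is close to these shares. Fits that left out a library or used the run of animal numbers were read out for the 10 genes and not for Fitm2.

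Of the other lipases and esterases 8 of 23 were tested, and 4 were called higher after TAC and 0 lower, beside 22.5% of all genes called higher, with a median of 0.44 against 0.35 for all genes. Lysosomal acid lipase (Lipa) was at 0.57 (limma adjusted p = 0.0098), the carboxylesterase Ces2e at 0.91 (limma adjusted p = 0.0121), the phospholipase Ddhd1 at 0.52 (limma adjusted p = 0.0136) and the diacylglycerol lipase Daglb at 0.68 (limma adjusted p = 0.0437). With TMM factors 0 were higher and 1, Abhd6 at −0.72, lower, beside 681 higher and 866 lower of all 16218 genes. Of 12 tested genes that bind, process or regulate lipoprotein lipase, 2 were called higher and 0 lower, with a median of 0.29. Lrp1, a receptor that takes up lipoproteins and lipase, rose from 68.7 ± 21.6 CPM (SD, n = 5) to 192 ± 44.5 CPM (SD, n = 3), by 1.53 (SE 0.29, limma adjusted p = 0.0031) and by 1.21 with TMM factors. The lipase maturation factor Lmf2 was higher by 0.77 (limma adjusted p = 0.0218), a call lost with TMM factors at 0.45. Neither list had a gene called for 29P within TAC. In treated mice, TAC 29P against Sham 29P, the 4 lists had 2, 2, 5 and 3 genes called higher and 0 lower in the order above. That was of 13, 12, 8 and 12 tested, beside 31.4% of all genes called higher and 1.12% lower. With TMM factors 0, 0, 1 and 1 were higher and 3, 1, 1 and 1 lower, beside 929 higher and 792 lower of all 16218 genes.

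Markers of non-muscle cells stood higher in TAC Veh than in Sham Veh, with an overlap for the endothelial sum, on the deposited scale. The summed CPM of 4 endothelial markers was 454 to 806 in Sham Veh and 778 to 1031 in TAC Veh, that of 4 macrophage markers 62.2 to 97.8 and 128 to 189, and that of 4 fibroblast markers 543 to 899 and 1032 to 1426. With TMM factors Col1a1 (1.76) and Adgre1 (0.83) were the 2 of these 12 markers called. The others stayed positive without a call. Csf1r was at 0.63, Cd68 at 0.57, Cdh5 at 0.44, Tie1 at 0.39, Mrc1 at 0.35 and Dcn at 0.30. Pecam1 was at 0.09, Kdr at 0.09, Pdgfra at 0.17 and Tcf21 at 0.17. The sum of 6 cardiomyocyte markers was 39430 to 51490 CPM in Sham Veh and 38830 to 43110 CPM in TAC Veh. Of the 6, Tnni3 alone was called on the deposited scale, lower at −0.54 (limma adjusted p = 0.0155). It was 2841 to 3426 CPM in Sham Veh and 1939 to 2227 CPM in TAC Veh. With TMM factors Tnni3 (−0.86), Myl2 (−0.655) and Tnnt2 (−0.55) were called lower. Myh6 (−0.475), Mb (−0.26) and Actc1 (−0.15) were not. Within TAC, the 4 erythroid markers were called lower with 29P, their sum being 3052 to 4933 CPM in TAC Veh and 1027 to 4118 CPM in TAC 29P. As deposited, the 4 were also called higher in TAC Veh than in Sham Veh, where the sum was 1009 to 2438 CPM. None of them was called in that comparison with TMM factors. The part of cell composition in the values of the 10 genes was not tested.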

How the data were processed

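Bulk RNA-sequencing of left ventricular apex from 17 mice was analysed, grouped by the labels. Per the study's methods, RNA was extracted with TRIzol, libraries were made with NEBNext Ultra II, and alignment to mm10 used STAR 2.3.7 within Partek Flow. The counting tool, strand setting and gene filter are not given in the sources used here. The authors deposited CPM values with 0.0001 added to each. Library depth was estimated from the step between low values. As only 78.7 to 81.4% of low values came out as whole reads (tolerance 0.05), read counts were not restored and no count model was run. No 2 libraries held identical values.

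Genes with a CPM of at least 0.5 in 3 or more libraries were kept (16218). log2 of the deposited values was fitted with limma 3.58.1 in R 4.3.3, with 1 mean per group and a variance trend, all 4 groups sharing the spread, and Benjamini-Hochberg adjustment over all genes tested. TAC comparisons were called at an adjusted p of 0.05, and 29P comparisons at an unadjusted p of 0.05 as in the study. Exact two-sided permutation tests used the log2 values of the libraries compared. The fit was tested on simulated data. Figures used Python 3.11.15 and matplotlib 3.10.9. Promoters were matched to RefSeq (8 of 10 genes) and coordinates to GENCODE vM21.

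The members and lists were chosen with earlier results of these data known. Named outside the 10 genes were, from each list, up to 4 genes with the smallest p called for TAC Veh against Sham Veh and up to 2 for 29P within TAC, the adipocyte markers, and the 5 genes closest in pattern to Ces1d and to Plin5. List genes called only with TMM factors were named after their values were seen. Alternatives were TMM (30% of log ratios and 5% of mean levels trimmed) and median-of-ratios factors, totals without the 16 mitochondrial genes, added constants of 0.1 and 1, no filter, a CPM of 1 in every library, the compared groups alone, a covariate for the run of animal numbers, no variance trend, each library left out, and the other threshold. Fits without S18, S19 and S20, and without these and S14, were added after seeing the data.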

Additional observations from a re-analysis of the deposited data

Results flagged for a closer look

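Of 32 sets of 4 to 10 libraries examined (each gene and each difference between 2 genes, in Sham Veh and TAC 29P), 1 held a library far from the others, where chance flags about 1 set in 20. It was the log2 difference Plin5 minus Pnpla2 in Sham Veh, where S13 was at −1.964 and the other 4 libraries between −1.559 and −1.423. The gap was 0.749 of the range of the 5 values. S13 also had the highest G0s2 value of all 17 libraries, 46.4 CPM, and its Pnpla2 (176 CPM) and Plin5 (45.2 CPM) values each lay within the range of the other Sham Veh libraries.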

How the results depend on the processing

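The number of the 10 genes past each threshold (counting Ces1d, for which it is a description) moved as follows. The counts of genes lower after TAC and of genes higher for 29P within TAC include Ces1d, whose own values chose it. Its place in them is no test and no support. The lowest counts of 1 with 1 library left out are Ces1d alone and are no measure of how stable the other genes were. For TAC Veh against Sham Veh, 1 was lower (1 to 1 with 1 library left out) and 2 were with TMM factors, with median-of-ratios factors (Plin5 joining Ces1d in both) and with a covariate for the run of animal numbers (Lpl joining, at −0.49). For TAC 29P against Sham 29P, 1 was higher (0 to 1 with 1 library left out) and 0 were with TMM factors, median-of-ratios factors, totals without mitochondrial genes, no filter, the run as a covariate, no variance trend, or without S14, S18, S19 and S20. In that comparison 2 were lower (1 to 2 with 1 library left out) and 1 was with the run as a covariate or without S14, S18, S19 and S20. For 29P within TAC, 2 were higher (1 to 2 with 1 library left out), 1 was with the run as a covariate or no variance trend, and 0 were at an adjusted p of 0.05. For 29P within Sham, 0 were higher (0 to 1 with 1 library left out) and 2 were without S14, S18, S19 and S20, and 0 were lower (0 to 0) and 1 was without S18, S19 and S20. Plin4 in Sham turned from −0.096 to 0.579 (limma unadjusted p = 0.0102) without S14, S18, S19 and S20. Runs and groups overlap in part, with S2 the only TAC Veh library in a run that also held TAC 29P libraries, and causes were not tested. Of the fitted values of single genes under all alternatives, 805 kept direction and side of the threshold, 91 moved without a call, 26 lost a call, 7 gained one and 1 turned. No replicate number is shared between groups, so no paired fit applies. At 3 libraries in TAC Veh and in Sham 29P, the standard error of a log2 fold change was 0.1 to 0.37, and lower levels were limited by depth, which is only estimated.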
